A study of Mus musculus with 8 samples.

Results

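The genes followed here are proneural factors and early neuron genes, 9 chosen by name. They comprise the basic helix-loop-helix (bHLH) transcription factors Neurog1, Neurog2, Neurod1, Neurod4 and Nhlh1, and the early neuron genes Tubb3, Dcx, Stmn2 and Gap43. Of the 9, 8 had an entry among the 46406 genes of the deposited table, and Tubb3 was not analysed here. Levels are in FPKM, fragments scaled by gene length and by the mapped total, so they can be compared between genes. Neurog2, Stmn2 and Gap43 were the 3 genes with a mean of at least 1 FPKM over the 8 libraries. The other 5, Neurog1, Neurod1, Neurod4, Nhlh1 and Dcx, lay below 1 FPKM on average.

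Poly(A) RNA was sequenced from anterior neural progenitor cells (AntNPC), made in culture from the E14 line of mouse embryonic stem cells and collected at day 5. The study compared cells homozygous for a deletion of the poised enhancer (PE) called PE Lhx5(-109), made in E14 cells with CRISPR-Cas9, with WT (E14) cells. The PE Lhx5(-109)-/- cells were 2 clonal lines, here clone 2 and clone 1, with 2 libraries each, against 4 WT libraries that carry no clone label. All groups were grown in N2B27 medium with 10 ng/ml bFgf until day 3 and with 5 µM Xav939, an inhibitor of WNT signalling, between day 2 and day 5. The submitters call the libraries biological replicates without saying whether each came from its own culture, so p-values measure the spread between these libraries, which may be technical. A line grown from 1 edited cell differs from WT in its derivation as well as in the deletion, and the design cannot tell these apart.

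Proneural bHLH factors bind the letters CANNTG (the E-box) as dimers with widely expressed E proteins and start neuronal differentiation in neural progenitors. Neurog1 and Neurog2 act first, in progenitors, while Neurod1, Neurod4 and Nhlh1 follow as cells commit to becoming neurons. Id proteins hold E proteins in dimers that cannot bind DNA, and Hes repressors acting downstream of Notch keep proneural genes low in progenitors. Among the early neuron genes, Dcx binds microtubules, Stmn2 binds tubulin in growing axons, and Gap43 is a membrane protein of growth cones.

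Lhx5, a LIM homeodomain factor and the gene after which the deleted enhancer is named, checks the labels. Its level was 1.90 and 1.26 FPKM in clone 2 and 1.24 and 0.854 FPKM in clone 1, against 16.9, 17.5, 16.2 and 15.0 FPKM in WT. It was lower in both clones, with a log2 fold change of all null against WT libraries of -2.93 (SE 0.13, limma adjusted p = 8.22e-05). Neural progenitor markers were present in every library: all 12 listed markers had a mean of at least 1 FPKM, and Sox2 ranged between 119 and 140 FPKM. The 9 mesoderm and endoderm markers summed to between 1.52 and 1.93 FPKM per library, and none of them reached a mean of 1 FPKM. Between 13983 and 14338 genes had at least 1 FPKM in a library, and the authors' mean reads per gene summed to 26864352 in null and 26693189 in WT cells in the authors' deposited table. No read counts of single libraries were used, and the depth of each library is unknown.

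The promoters of 3 proneural genes are shown because Neurog2 and Neurod1 are the factors whose levels differed between the clones, with Neurog1, the closest relative of Neurog2, beside them. Each line gives the 250 bases upstream of the RefSeq gene start in GRCm38.p6, 5′ to 3′ on the strand of the gene. Capitals mark CANNTG, searched on both strands, and TATATAA or its reverse complement TTATATA, letters searched for after the sequences had been seen. The windows are chr3:127632886-127633135 (plus strand) for Neurog2, chr2:79456637-79456886 (minus strand) for Neurod1 and chr13:56252181-56252430 (minus strand) for Neurog1. The gene span of Neurod1 in the deposited table starts farther upstream than the RefSeq start and covers part of its window.
Neurog2: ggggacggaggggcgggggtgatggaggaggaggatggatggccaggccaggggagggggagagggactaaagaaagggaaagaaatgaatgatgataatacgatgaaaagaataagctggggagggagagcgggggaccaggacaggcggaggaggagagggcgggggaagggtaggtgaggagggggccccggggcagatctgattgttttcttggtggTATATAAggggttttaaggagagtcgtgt
Neurod1: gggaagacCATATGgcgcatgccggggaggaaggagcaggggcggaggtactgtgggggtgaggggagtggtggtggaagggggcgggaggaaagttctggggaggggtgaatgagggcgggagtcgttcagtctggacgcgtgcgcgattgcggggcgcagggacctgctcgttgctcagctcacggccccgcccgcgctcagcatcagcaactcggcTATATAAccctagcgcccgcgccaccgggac
Neurog1: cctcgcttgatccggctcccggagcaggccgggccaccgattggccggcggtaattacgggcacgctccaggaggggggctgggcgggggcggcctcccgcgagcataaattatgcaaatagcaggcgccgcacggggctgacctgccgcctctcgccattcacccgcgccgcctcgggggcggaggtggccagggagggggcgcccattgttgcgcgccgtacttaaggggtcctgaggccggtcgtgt
The Neurog2 and Neurod1 windows each held 1 TATATAA, beginning 29 bases from the downstream end in Neurog2 and 31 bases from it in Neurod1, and the Neurog1 window held none. Among all 32851 promoter windows of this length, 3.04% held it on either strand. CANNTG occurred 1 time in the Neurod1 window, as CATATG, and not in the windows of Neurog2 and Neurog1, whereas 66.2% of all windows held it. CAGATG or its reverse complement CATCTG, a form of the E-box bound by Neurog and Neurod factors, was in none of these 3 windows and in 14.4% of all windows. In windows of 300 bases, 72.3% of all promoters held CANNTG, and Neurog1 held it 1 time. The window of the member Nhlh1, not printed here, held CAGATG or CATCTG at both lengths. The GC content was 58.0% for Neurog2, 67.6% for Neurod1 and 71.2% for Neurog1, against a median of 52.4% over all windows. These are matches of letters only, and a window without a match says nothing about binding elsewhere.

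The order of levels was the same at the top in all groups. Stmn2 was highest, followed by Gap43 and Neurog2. In clone 2 Stmn2 ranged from 17.2 to 23.3 FPKM, Gap43 from 9.24 to 12.6 FPKM and Neurog2 from 0.501 to 1.30 FPKM, and neighbours in this order did not overlap in any group. In clone 1 the ranges were 34.2 to 35.5 FPKM for Stmn2, 23.8 to 27.9 FPKM for Gap43 and 10.1 to 12.2 FPKM for Neurog2. In WT they were 29.7 to 36.8 FPKM for Stmn2, 17.9 to 21.2 FPKM for Gap43 and 2.71 to 6.91 FPKM for Neurog2. Neurod1 came next in clone 1, from 1.48 to 2.44 FPKM, and in WT, from 0.537 to 0.904 FPKM, and its range met no neighbour's there. In clone 2 Neurod1, at 0.207 to 0.317 FPKM, overlapped Neurog1, at 0.222 to 0.357 FPKM. Below these, Neurog1, Nhlh1, Neurod4 and Dcx each overlapped the next in WT. In clone 1 Neurog1 and Nhlh1 overlapped, and Neurod4 and then Dcx lay lower without overlap. In clone 2 Dcx, Nhlh1 and Neurod4 each overlapped the next.

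**Figure D1:**
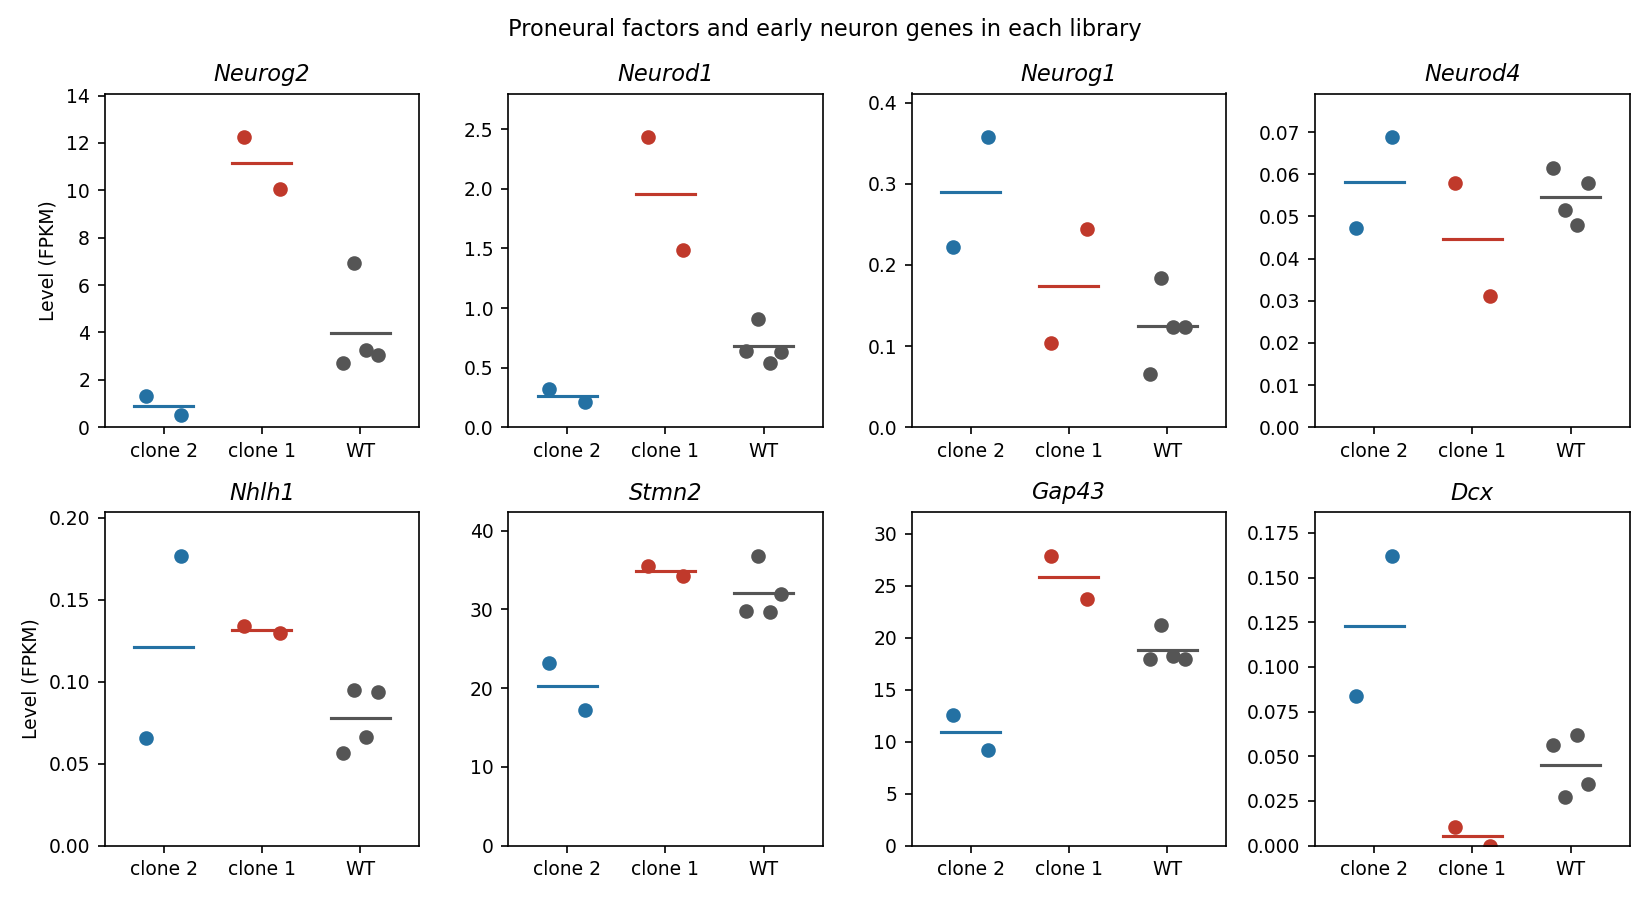
Level of each of the 8 measured genes in FPKM (vertical axis, a separate scale per gene, starting at 0) in clone 2, clone 1 and WT. Points are libraries and bars are group means; Neurog2 lies between 0.501 and 1.30 FPKM in clone 2, between 10.1 and 12.2 FPKM in clone 1 and between 2.71 and 6.91 FPKM in WT.

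The comparison of all 4 null with all 4 WT libraries asks whether the enhancer deletion goes with a change in these genes. The fit counts the 4 null libraries as independent, although they came from 2 clonal lines. No member passed the test: 0 of the 3 members tested were called by limma, beside 0.0551% of the 14521 genes tested (8 genes). At an unadjusted p under 0.05 limma called 688 genes, 4.74% of those tested, none of them a member. With libraries of a line treated as correlated, 3 genes passed the adjusted threshold, and 0 members. The log2 fold change of FPKM + 1 was 0.00 for Neurog2 (95% interval -1.82 to 1.82), -0.26 for Stmn2 (-0.77 to 0.24) and -0.16 for Gap43 (-0.91 to 0.60). For Neurog2 and Gap43 the 2 clones lay on opposite sides of WT, and all 3 intervals include 0. In the authors' deposited table the mean reads were 423.4 in null and 272.68 in WT for Neurog2, 1684.7 in null and 1926.4 in WT for Stmn2, and 739.68 in null and 743.48 in WT for Gap43. The p-values of that table, adjusted here over 28134 genes, were at least 0.965 for every member.

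Neurog2, the neurogenin that drives glutamatergic neurogenesis in the embryonic forebrain, had the largest log2 fold change of FPKM + 1 between the clones among the 3 tested members. The gene has the identifier ENSMUSG00000027967 and spans chr3:127633135-127635631 on the plus strand. It had 1.30 and 0.501 FPKM in clone 2 and 12.2 and 10.1 FPKM in clone 1, against 2.71, 6.91, 3.25 and 3.06 FPKM in WT. Both clone 2 libraries lay below every WT library and both clone 1 libraries above every WT library, so the 3 groups did not overlap. Of all genes tested, 6.02% had clone 1 above and clone 2 below every WT library. The mean was 0.901 ± 0.565 FPKM in clone 2 and 11.2 ± 1.55 FPKM in clone 1 (SD, n = 2 each), and 3.98 ± 1.97 FPKM in WT (SD, n = 4). Clone 2 against clone 1 gave a log2 fold change of -2.70 (SE 0.40, limma adjusted p = 0.00351), and the mean level of clone 1 was 12.4 times that of clone 2. All 3 tested members were lower in clone 2 than in clone 1, beside 39.9% of all genes called in either direction and 15% called lower. The libraries of clone 2 all lay below those of clone 1 for 3 of 3 members, and for 27.8% of all genes. Clone 1 against WT gave 1.35 (SE 0.35, limma adjusted p = 0.0493), and the call was lost under 11 of 14 alternative settings, with adjusted p between 0.00217 and 0.484 over them. When libraries were left out one at a time, it held without WT replicate 2 and was lost without any of the other 7, with adjusted p between 0.0625 and 0.142. Clone 2 against WT gave -1.35 (SE 0.35, limma adjusted p = 0.0524), which did not pass.

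WT replicate 2 stood apart from the other WT libraries for Neurog2, at 6.91 FPKM against 2.71 to 3.25 FPKM. Without it, clone 2 was lower than WT for Neurog2 by a log2 fold change of -1.11 (limma adjusted p = 0.0162) and clone 1 was higher by a log2 fold change of 1.60 (limma adjusted p = 0.00217). The summed level of pluripotency and epiblast markers was in the same order of groups as Neurog2. The 9 markers together summed to 84.8 and 74.5 FPKM in clone 2 and 194 and 174 FPKM in clone 1, against 103, 127, 99.96 and 112 FPKM in WT, where replicate 2 was again the highest. Dnmt3b and Pou5f1 make up most of this sum, and not all markers ran that way. Klf4 had 0.599 and 0.753 FPKM in clone 2 and 0.215 and 0.361 FPKM in clone 1, against 0.352 to 0.711 FPKM in WT, and Esrrb had 0.537 and 0.475 FPKM in clone 2 and 0.241 and 0.192 FPKM in clone 1, against 0.391 to 0.643 FPKM in WT. Zfp42 averaged 0.499 FPKM in clone 2 and 1.00 FPKM in clone 1, against 1.25 FPKM in WT. None of these markers was at 0 in all libraries, 6 of 9 had a mean of at least 1 FPKM, and their part in the Neurog2 difference was not tested. In such bulk RNA, fewer cells that express a gene and less RNA of it per cell cannot be told apart.

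Neurod1, a differentiation factor that acts downstream of neurogenins, ran in the same directions at a lower level. The gene is ENSMUSG00000034701 at chr2:79452521-79456751 on the minus strand. It had 0.317 and 0.207 FPKM in clone 2 and 2.44 and 1.48 FPKM in clone 1, against 0.636, 0.904, 0.537 and 0.634 FPKM in WT. Again clone 2 lay below and clone 1 above all WT libraries. Its mean over the 8 libraries, 0.894 FPKM, kept it out of the test of genes at 1 FPKM or more. With genes admitted from a mean of 0.1 FPKM, 19969 in number, an alternative applied to this gene after its values were seen, clone 2 against clone 1 gave a log2 fold change of -1.21 (SE 0.16, limma adjusted p = 0.00166), beside 31.5% of genes called. Clone 1 against WT gave 0.80 (SE 0.14, limma adjusted p = 0.0155), beside 10.5% of genes called. Clone 2 against WT gave -0.41 (limma adjusted p = 0.108), beside 9.13% of genes called. All null against WT gave 0.20 on the same scale, beside 0.0501% of genes called, with an exact permutation p of 0.6 (two-sided, 70 arrangements, the smallest possible being 0.0286). Exons of Neurod1 overlap those of Cerkl on the same strand, and those of Gm26755 on the opposite strand, so reads shared with these genes make the level of Neurod1 uncertain. Cerkl had 0.308 and 0.378 FPKM in clone 2 and 0.714 and 0.968 FPKM in clone 1, against 0.348, 0.618, 0.666 and 0.413 FPKM in WT, so its clones lay in the same order as those of Neurod1. Gm26755 had at most 0.0399 FPKM in any library. The part of shared reads in the Neurod1 difference was not tested.

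The other 3 proneural factors, Neurog1 at chr13:56250478-56252163, Nhlh1 at chr1:172052292-172057573 and Neurod4 at chr10:130268152-130280240, all on the minus strand, were far below 1 FPKM. Neurog1, the relative of Neurog2 that specifies sensory neurons, had 0.222 and 0.357 FPKM in clone 2 and 0.103 and 0.245 FPKM in clone 1, against 0.0658, 0.183, 0.123 and 0.124 FPKM in WT. Clone 2 lay above all WT libraries for Neurog1, so its order of clones was not that of Neurog2, while clone 1 overlapped WT. Nhlh1, a bHLH factor of newly formed neurons, had 0.0655 and 0.177 FPKM in clone 2 and 0.134 and 0.130 FPKM in clone 1, against 0.0567 to 0.0949 FPKM in WT. For Nhlh1 both clone 1 libraries lay above WT, while clone 2 had 1 library inside the WT range and 1 above it. Neurod4, which acts with Neurog2 in neuron formation, stayed between 0.0312 and 0.0688 FPKM in all 8 libraries. Exact two-sided permutation tests of null against WT gave p = 0.114 for Neurog1, p = 0.114 for Nhlh1 and p = 0.743 for Neurod4. In the authors' deposited table these levels rest on mean reads of 12.87 in null and 6.15 in WT for Neurog1, 9.53 in null and 5.74 in WT for Nhlh1, and 5.33 in null and 5.58 in WT for Neurod4. With genes admitted from a mean of 0.1 FPKM, clone 2 against WT gave a log2 fold change of 0.20 for Neurog1 (95% interval 0.020 to 0.37, limma adjusted p = 0.149) and 0.055 for Nhlh1 (limma adjusted p = 0.607), and neither passed there or in the other clone comparisons. Neurod4 was below that filter as well.

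Stmn2, which encodes a tubulin-binding protein of growing axons also called SCG10, was the most abundant of the genes. The gene is ENSMUSG00000027500 at chr3:8509360-8561606 on the plus strand. It had 23.3 and 17.2 FPKM in clone 2 and 35.5 and 34.2 FPKM in clone 1, against 29.9, 36.8, 29.7 and 31.9 FPKM in WT. Clone 2 lay below all WT libraries, while clone 1 fell within the WT range. The mean was 20.2 ± 4.30 FPKM in clone 2 and 34.8 ± 0.876 FPKM in clone 1 (SD, n = 2 each), and 32.1 ± 3.34 FPKM in WT (SD, n = 4). Clone 2 was lower than WT, with a log2 fold change of -0.65 (SE 0.12, limma adjusted p = 0.0179), and lower than clone 1, with -0.77 (SE 0.14, limma adjusted p = 0.00434). Clone 1 against WT gave 0.12 (95% interval -0.16 to 0.41, limma adjusted p = 0.535), which did not pass.

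Gap43, a growth cone protein that regulates axon extension, separated all 3 groups. The gene is ENSMUSG00000047261 at chr16:42248442-42340651 on the minus strand. It had 12.6 and 9.24 FPKM in clone 2 and 27.9 and 23.8 FPKM in clone 1, against 17.9, 21.2, 18.2 and 17.9 FPKM in WT. As for Neurog2, clone 2 lay below and clone 1 above every WT library. The mean was 10.9 ± 2.35 FPKM in clone 2 and 25.8 ± 2.92 FPKM in clone 1 (SD, n = 2 each), and 18.8 ± 1.61 FPKM in WT (SD, n = 4). Clone 2 was lower than clone 1, with a log2 fold change of -1.18 (SE 0.14, limma adjusted p = 0.000681), and lower than WT, with -0.75 (SE 0.12, limma adjusted p = 0.0103). Clone 1 was higher than WT by 0.44 (SE 0.12, limma adjusted p = 0.046), a call lost under 9 of 14 alternative settings, with adjusted p between 0.0232 and 0.349. It was lost without either clone 1 library and without WT replicate 1, 3 or 4, with adjusted p between 0.102 and 0.189. Gap43 was the 1 member called both higher in clone 1 and lower in clone 2, as were 1.43% of all genes.

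Against WT, 2 of 3 tested members were lower in clone 2, beside 14% of all genes called and 6.96% called lower. All 3 had both clone 2 libraries below every WT library, as did 22.7% of all genes. In clone 1 against WT, 2 of 3 were called, both higher, beside 15.6% of all genes called and 4.16% called higher. The same 2 had both clone 1 libraries above every WT library, as did 12.1% of all genes. Both calls in clone 2 rest on its replicate 2: without that library the adjusted p by limma was 0.135 for Stmn2 and 0.0867 for Gap43, and 172 genes in all were called against 2036 with it. In clone 1 against WT, 438 genes were called without clone 1 replicate 2, against 2266 with it, and 1008 to 1077 without WT replicate 1, 3 or 4. In clone 2 against WT, 759 to 1292 genes were called without WT replicate 2, 3 or 4. The comparisons of each clone with WT share the 4 WT libraries, so they are not independent of each other.

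**Figure D2:**
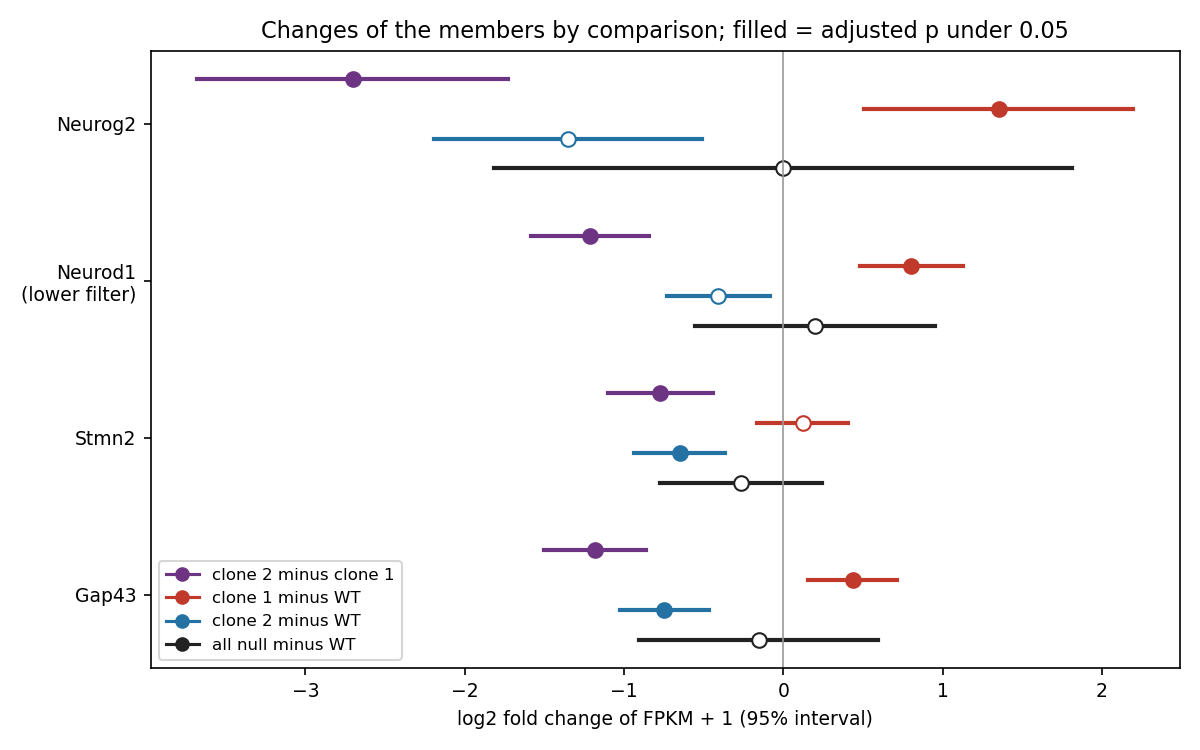
Log2 fold change of FPKM + 1 (horizontal axis) with its 95% interval for 4 genes (rows) in each comparison, the contrast named by colour. Filled circles have a limma adjusted p under 0.05; Neurod1 is from the test of genes with a mean of at least 0.1 FPKM, and Neurog2 lies at -2.70 for clone 2 minus clone 1, at 1.35 for clone 1 minus WT and at -1.35 for clone 2 minus WT, the last open.

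Dcx, which encodes the microtubule-binding protein doublecortin of migrating young neurons, was far below 1 FPKM. The gene, ENSMUSG00000031285 at chrX:143855842-143933311 on the minus strand, had 0.0836 and 0.162 FPKM in clone 2 and 0.0103 FPKM and a listed value of 0 in clone 1, against 0.0562, 0.0274, 0.0620 and 0.0343 FPKM in WT. Both clone 2 libraries lay above and both clone 1 libraries below all WT libraries, the reverse of the order for Neurog2 and Gap43. An exact two-sided permutation test of null against WT gave p = 0.743. The authors' deposited table gives mean reads of 17.05 in null and 11.31 in WT for Dcx. With no filter on low values, clone 2 against clone 1 gave 0.16 for Dcx (limma adjusted p = 0.0202) on the log2(FPKM + 1) scale, which understates changes of low genes.

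The partners, inhibitors and downstream genes of proneural factors were grouped in lists by role. Among all genes tested, 24.9% were called higher and 15% lower in clone 2 than in clone 1, and the counts of each list are to be read beside these shares. Of the 3 E proteins, the dimer partners, Tcf3 and Tcf12 were higher in clone 2 than in clone 1, in both cases against the direction of Neurog2. Tcf12 had 68.7 and 81.5 FPKM in clone 2 and 42.6 and 37.9 FPKM in clone 1, against 61.5, 51.7, 59.8 and 58.3 FPKM in WT. The groups did not overlap for Tcf12, and the log2 fold change of clone 2 against clone 1 was 0.88 (SE 0.10, limma adjusted p = 0.000634). For Tcf3 the difference was smaller, 0.34 (limma adjusted p = 0.000855). Against WT, both rose in clone 2 (0.37 for Tcf12 and 0.16 for Tcf3) and fell in clone 1 (-0.51 for Tcf12 and -0.18 for Tcf3). Of the 14 alternative settings, 5 ended the call of Tcf12 and 6 that of Tcf3 in clone 2 against WT, and 2 ended that of Tcf12 and 5 that of Tcf3 in clone 1 against WT. The median log2 fold change of clone 2 against clone 1 was 0.39 over the 3 E proteins and 0.05 over all genes tested.

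Among 13 inhibitors, which comprise Id proteins, Hes and Hey repressors and the Rest complex, 11 were tested. In clone 2 against clone 1, 5 were higher and 0 lower, and 6 did not pass. Id3, which sequesters E proteins, had 123 and 119 FPKM in clone 2 and 67.5 and 74.0 FPKM in clone 1, against 91.3, 89.9, 95.2 and 90.6 FPKM in WT, with no overlap between groups. Its log2 fold change of clone 2 against clone 1 was 0.77 (SE 0.05, limma adjusted p = 9.75e-05). Hes3, a repressor of progenitors, had 16.3 and 22.3 FPKM in clone 2 and 4.36 and 5.47 FPKM in clone 1, against 13.9, 8.74, 12.9 and 12.9 FPKM in WT, and its log2 fold change between the clones was 1.77 (limma adjusted p = 0.00145). Id2, at 0.41, and Hes1, at 0.32, were also higher in clone 2 than in clone 1. Against WT, Id1, Id2 and Id3 rose in clone 2, whereas Id3, Hes1, Hes3 and Rcor2 fell in clone 1, where the call of Rcor2 was lost under 8 of 14 alternative settings. Hes5, the main Notch target among them, passed in no comparison, at 12.9 and 22.4 FPKM in clone 2 and 25.0 and 23.4 FPKM in clone 1, against 12.3 to 18.1 FPKM in WT. The list's median log2 fold change was 0.32 between the clones, beside 0.05 over all genes.

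Genes that act downstream of or together with proneural factors in neuronal commitment formed a list of 31, of which 19 were tested. In clone 2 against clone 1, 8 were lower, 5 higher and 6 did not pass. The 5 higher were Nova2, by a log2 fold change of 0.98, Cdkn1c by 0.46, Elavl2 by 0.34, and Sox11 and Nova1 by 0.27 each. Those lower included Insm1, a zinc finger factor of neuron-producing progenitors, by a log2 fold change of -1.27. Btg2, which marks progenitors about to make neurons, differed by -1.03, Dll3, a Notch ligand family member induced by proneural factors, by -0.99, and Srrm4, a splicing factor of neurons, by -0.87. Insm1 had 1.49 and 1.04 FPKM in clone 2 and 4.40 and 4.50 FPKM in clone 1, against 2.93, 4.34, 2.75 and 3.06 FPKM in WT. Btg2 had 25.9 and 24.4 FPKM in clone 2 and 55.3 and 49.8 FPKM in clone 1, against 33.3, 39.7, 33.6 and 33.9 FPKM in WT. The clones did not overlap for either gene, and WT lay between them. Against WT, 8 of the list were lower and 1 higher in clone 2, beside 6.96% and 7.06% of all genes tested. In clone 1 against WT, 4 were higher and 5 lower, beside 4.16% and 11.4% of all genes tested. Rnd2, a small GTPase that acts downstream of Neurog2 in migrating neurons, was not ordered as Neurog2: it fell in both clones, by a log2 fold change of -0.34 in clone 2 and -0.29 in clone 1. Dll1, a Notch ligand and a known Neurog2 target, did not pass in any comparison, at 28.3 and 32.7 FPKM in clone 2 and 28.1 and 26.7 FPKM in clone 1, against 25.9 to 28.5 FPKM in WT. The list's median log2 fold change between the clones was -0.05, beside 0.05 over all genes.

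The list of early neuron cytoskeleton and axon genes, 32 with Stmn2 and Gap43 among them, had 26 tested. In clone 2 against clone 1, 8 were higher, 5 lower and 13 did not pass, shares near the 24.9% and 15% over all genes. The 5 lower were Stmn2, Gap43, Stmn3, Crmp1 and Cntn2. Crmp1, a growth cone protein, had 67.3 and 60.7 FPKM in clone 2 and 92.1 and 88.4 FPKM in clone 1, against 81.7, 84.1, 82.0 and 81.6 FPKM in WT, and its log2 fold change between the clones was -0.49 (limma adjusted p = 0.000468). Rtn1, a reticulon of neurons, went the other way at 13.4 and 13.8 FPKM in clone 2 and 6.07 and 6.36 FPKM in clone 1, against 10.5 to 11.4 FPKM in WT, with a log2 fold change between the clones of 1.01 (limma adjusted p = 9.75e-05). Marcks, which progenitors express as well as neurons, was also higher in clone 2, by 0.62. The median log2 fold change over the 26 genes was 0.14 between the clones, of the opposite sign to Stmn2 and Gap43, beside 0.05 over all genes. Of the 14 mature neuron and synapse genes, 7 were tested, and 3 were lower in clone 2 than in clone 1: Vamp2 and Stx1a of the synaptic vesicle fusion machinery, with log2 fold changes of -0.27 and -0.36, and the glutamate transporter gene Slc17a7, with -0.58. Under the 14 alternative settings the call was lost 10 times for Vamp2, 4 times for Stx1a and 3 times for Slc17a7. In all null against WT, 0 genes of any of the 13 lists passed in the fit of 2 groups. When the fit of 3 groups was used and the clones were averaged, Rnd2 (-0.32, limma adjusted p = 0.0142), Sox9 (-0.32, limma adjusted p = 0.0300) and Vim (0.29, limma adjusted p = 0.0296) passed among the named genes.

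**Figure D3:**
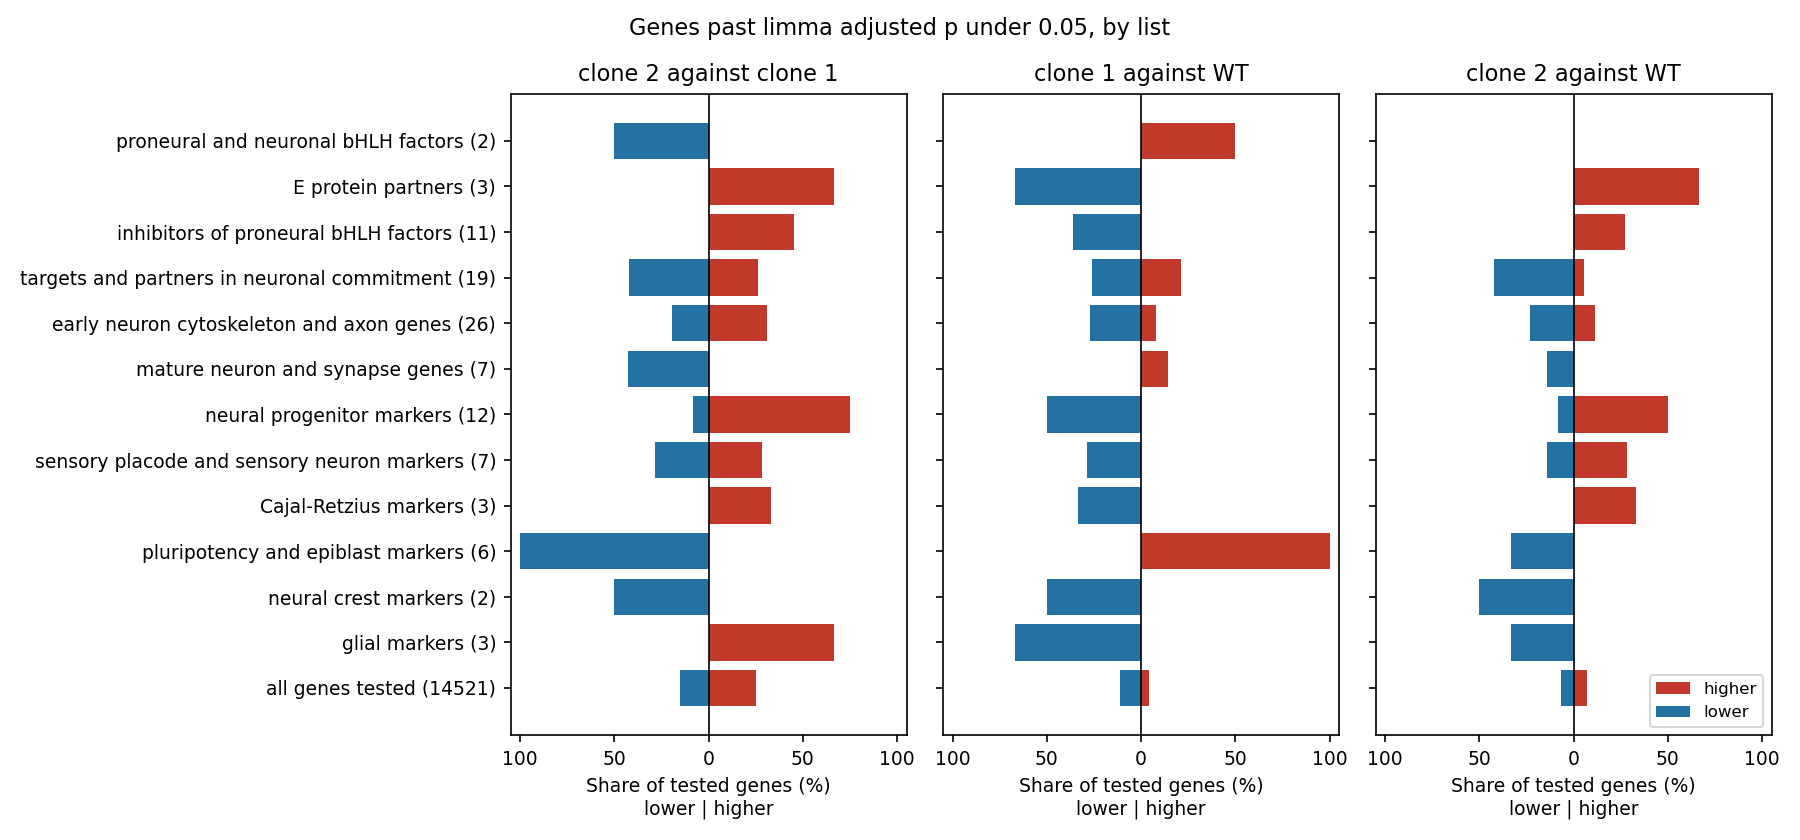
Share of the tested genes of each list (number tested in brackets) that were higher (right of 0) or lower (left of 0) at a limma adjusted p under 0.05, in percent, in 3 comparisons, with all 14521 genes tested in the bottom row. In clone 2 against clone 1 the bottom row reads 24.9% higher and 15% lower.

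Markers of other cell states moved with the clones as well. Of the 12 progenitor markers, 9 were higher in clone 2 than in clone 1, with Fabp7, a radial glia lipid carrier, at a log2 fold change of 2.98 and Sox21 at 1.41, and 1, Pax6, was lower. Their summed level was 599 and 652 FPKM in clone 2 and 515 and 473 FPKM in clone 1, against 571 to 592 FPKM in WT, and no marker was at 0. All 6 tested pluripotency and epiblast markers were lower in clone 2 than in clone 1, Pou5f1 with a log2 fold change of -1.93 and Nanog with -1.59, and all 6 were higher in clone 1 than in WT. Against WT, Nanog and Dnmt3b were lower in clone 2 and the other 4 did not pass. Pou5f1 and Nanog have processed pseudogenes that can share reads with them, so their levels are uncertain. The glial markers summed to 19.9 and 18.9 FPKM in clone 2 and 12.2 and 11.2 FPKM in clone 1, against 16.6 to 19.3 FPKM in WT, with Pdgfra higher in clone 2 than in clone 1 by a log2 fold change of 0.87. Sensory placode and sensory neuron markers summed to 30.9 and 31.3 FPKM in clone 2 and 26.6 and 26.4 FPKM in clone 1, against 27.5 to 30.0 FPKM in WT, with 2 higher and 2 lower of 7 tested between the clones. Of 3 tested Cajal-Retzius markers, Cxcr4 was higher in clone 2 than in clone 1, and of 2 tested neural crest markers, Erbb3 was lower. Markers below the filter included some with values the other way. In the Cajal-Retzius list Trp73 had 0.279 and 0.197 FPKM in clone 2 and 1.20 and 1.55 FPKM in clone 1, against 0.351 to 0.622 FPKM in WT, and Lhx1 had 0.0875 and 0.0301 FPKM in clone 2 and 0.591 and 0.445 FPKM in clone 1, against a mean of 0.231 FPKM in WT. In the neural crest list Tfap2b had 1.69 and 1.32 FPKM in clone 2 and 0.221 and 0.162 FPKM in clone 1, against 0.259 to 0.506 FPKM in WT. The part of these cell states in the levels of Neurog2, Stmn2 and Gap43 was not tested.

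**Figure D4:**
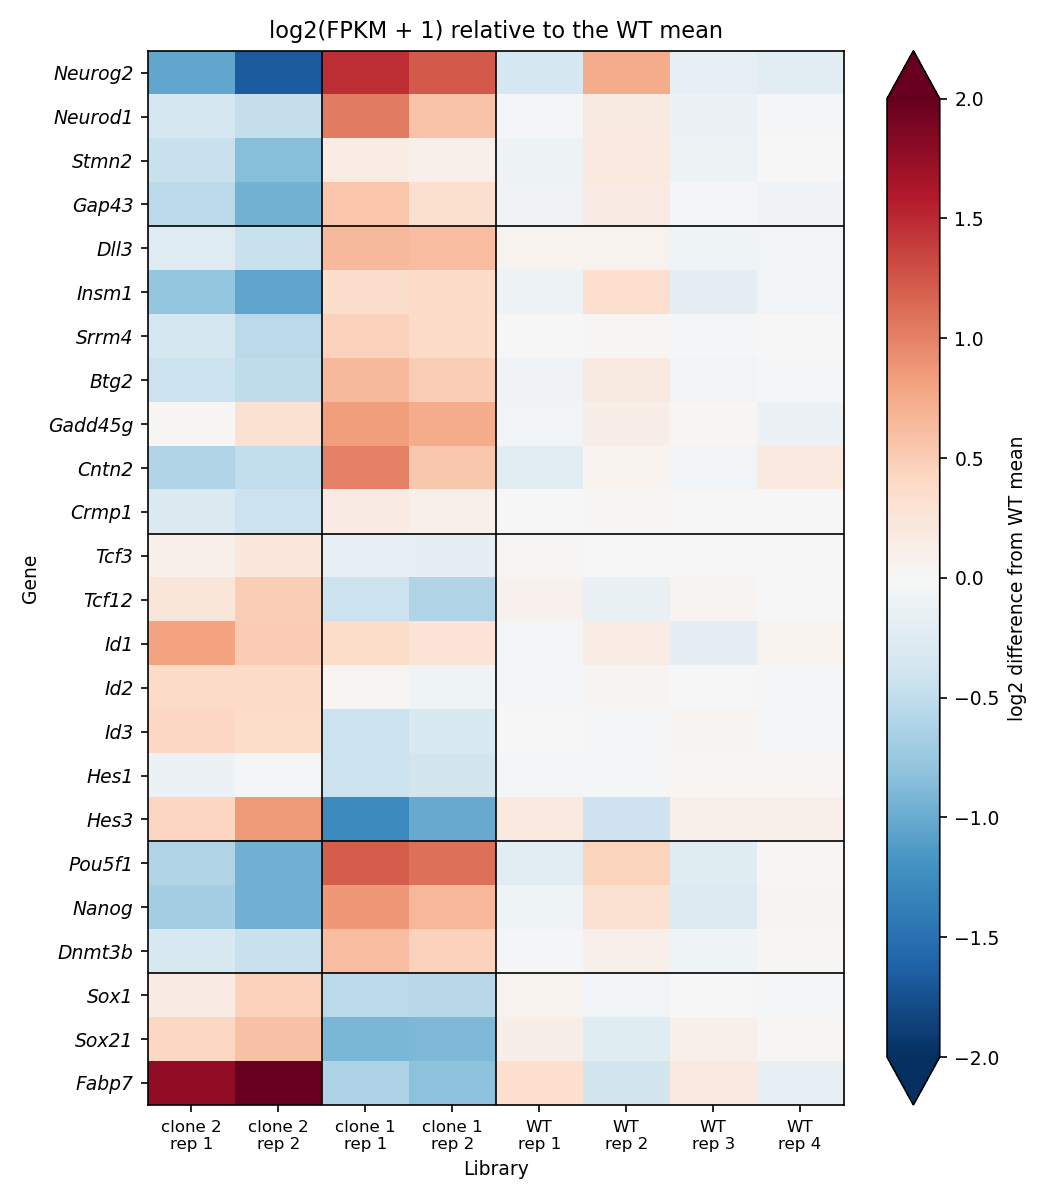
Difference of log2(FPKM + 1) from the WT mean (colour, log2 units, saturated at -2 and 2) for members and genes of the lists (rows) in each of the 8 libraries (columns); lines separate 5 groups of genes and the 3 groups of libraries. The rows are a selection and do not stand for the whole lists. Genes that ran against their block between the clones, among them Rtn1, Marcks, Nova2, Pax6, Klf4 and Esrrb, are not shown. The members Neurog1, Nhlh1, Neurod4 and Dcx are not shown either. Neurog2 is at -1.04 and -1.66 in clone 2 and at 1.48 and 1.22 in clone 1, and among WT libraries replicate 2 is at 0.74.

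Genes whose pattern over the 8 libraries was most like that of the members were listed as a description, among 10428 genes with a mean of at least 5 FPKM. Rabac1 was nearest to Neurog2 (Pearson r = 0.998 over the 8 libraries), followed by Vat1, Fabp3, Gm12666, Gm11532, Glipr2, Bst2 and Ppfia4, the last at 0.994. Marveld1 was nearest to the mean of Stmn2 and Gap43 (r = 0.998), and the next nearest included Naprt, Wbscr27, Pnma2, Acot9, Aldoc and Osgep, the last at 0.994. These values rest on 3 groups of libraries that share their culture lines.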

How the data were processed

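Poly(A) RNA of 8 libraries, prepared with TruSeq v2 per the labels' protocols, was analysed from 1 table. The authors' FPKM values, 1 per gene and library, were used as deposited. The authors' mean reads per genotype are a signal column of unstated scaling, and the deposited fold is a ratio of null to WT mean reads. The deposited p-value of each gene names no test. TopHat2, SAMtools, Cufflinks, DESeq2 and FastQC are listed in the submitters' processing notes beside GRCm38 and mm10, without versions or roles. The sources used here do not state strand assignment. All 8 library columns were mapped to a group from their names, the null columns to a clone.

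Computed here were limma fits (3.58.1, R 4.3.3) with trend and robust variance on log2(FPKM + 1), a scale that understates changes of low genes. Genes with a mean of at least 1 FPKM entered, 14521 of 46406, with Benjamini-Hochberg adjustment over all of them and a two-sided threshold of 0.05. Null against WT was a fit of 2 groups; the clone comparisons came from 1 fit of 3 groups that share the spread. Members below the filter were tested by exact permutation. Alternatives were pseudocount 0.1, other filters, rescaled libraries, no robust step, correlated lines, a replicate block and each library left out. The script was tested on simulated data.

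The members and lists were chosen with earlier results of these data known. Named were the members, Lhx5 and, per list and comparison, up to 4 called genes by smallest adjusted p; other names were chosen after their values were seen. Promoter sequences are from RefSeq (GRCm38.p6), where 7 of 9 members matched. Some genes that met the naming rule are not reported here. A planned comparison of protein sequences was not run. The number of libraries limits precision, and intervals cover the spread between libraries.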

Additional observations from a re-analysis of the deposited data

Results flagged for a closer look

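WT replicate 2 stood apart from the other 3 WT libraries for 5 of the named genes, by a gap to its nearest neighbour above Dixon's critical value for 4 samples. Its values were 6.91 FPKM for Neurog2, 21.2 FPKM for Gap43, 39.7 FPKM for Btg2, 84.1 FPKM for Crmp1 and 7.23 FPKM for Eya2, each the highest of WT. WT replicate 4 stood apart for Rnd2, as the lowest at 36.2 FPKM. Chance marks about 1 in 20 groups in this way. Over all 14521 genes tested, WT replicate 2 stood apart in 428 genes (2.95%), and each of the other WT libraries in 150 to 185 genes (1.03% to 1.27%).

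The effects of the 2 clones against the same WT libraries differed, by limma's test of the difference itself (clone 2 minus clone 1), for the named genes that follow. Among the members the log2 difference was -2.70 for Neurog2, -1.18 for Gap43 and -0.77 for Stmn2. In the E proteins it was 0.88 for Tcf12 and 0.34 for Tcf3. In the inhibitors it was 1.77 for Hes3, 0.77 for Id3, 0.41 for Id2 and 0.32 for Hes1. In neuronal commitment it was -1.27 for Insm1, -1.03 for Btg2, -0.99 for Dll3 and -0.87 for Srrm4. In the cytoskeleton and synapse lists it was 1.01 for Rtn1, 0.62 for Marcks, -0.49 for Crmp1, -0.58 for Slc17a7, -0.36 for Stx1a and -0.27 for Vamp2. In progenitor and pluripotency markers it was 2.98 for Fabp7, 1.41 for Sox21, 0.97 for Cdh2, 0.86 for Sox1, -1.93 for Pou5f1, -1.59 for Nanog, -1.01 for Dppa4 and -0.92 for Dnmt3b. In the other marker lists it was 1.51 for Eya1, 0.79 for Pou4f1, -0.88 for Phox2a, -0.68 for Eya2, 0.60 for Cxcr4, -0.64 for Erbb3 and 0.87 for Pdgfra. Of all genes tested, 39.9% were called between the clones.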

How the results depend on the processing

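Between the clones, Neurog2, Stmn2 and Gap43 kept their direction and call under the 14 alternatives, except Neurog2 under the replicate block (adjusted p = 0.0759). Members called in clone 1 against WT (2 of 3 tested as reported) numbered 1 with pseudocount 0.1 or no robust step. They numbered 0 to 2 when a library was left out. With a mean of at least 0.1 FPKM, 1 of 6 tested was called, Neurod1, and with no filter 1 of 8. Under these 2 filters neither Neurog2 (limma adjusted p = 0.0565 and 0.0612) nor Gap43 (0.0615 and 0.0987) passed. In clone 2 against WT (2 as reported) members called numbered 0 to 3 when a library was left out. Between the clones 5 of 8 members tested were called with no filter, beside 5873 of 28300 genes. Dcx was among the 5, higher in clone 2, the reverse of Neurog2, Stmn2 and Gap43. Neurog2 in clone 2 against WT passed with pseudocount 0.1 (adjusted p = 0.0389), rescaled libraries (0.0423) and no robust step (0.0402). In null against WT no member was called under any alternative. There the log2 fold change of Neurog2 was -0.24 with pseudocount 0.1 and between -0.49 and 0.55 when a library was left out, and those of Gap43 between -0.39 and 0.11, reversed without clone 2 replicate 2. Bhlhe22 (-0.15 to 0.0022 with a library left out) reversed without clone 2 replicate 2, Tcf12 (-0.26 to 0.10) without either clone 1 library, and Neurod1 with the lower filter (-0.081 to 0.42) without clone 1 replicate 1, all uncalled. Of the values of the other named genes under these settings, 426 of 448 between the clones, 328 of 406 in clone 1 against WT and 261 of 336 in clone 2 against WT kept direction and call; in null against WT 186 of 192 did, 3 passed and 3 reversed. Causes were not tested.

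Genes called in all numbered, for null against WT (8), 4 with rescaled libraries, 3 with correlated lines, 106 for the mean of the clones, 220 by the authors' deposited p-values and 3 to 8 with a library left out. By library left out, they numbered 3 without WT replicate 1, 4 without WT replicate 2 or 4 or clone 1 replicate 2, and 5 without clone 2 replicate 1. They numbered 1506 with no filter in clone 1 against WT and 1160 in clone 2 against WT. With a library left out they ranged from 438 to 3091 in clone 1 against WT and from 172 to 2425 in clone 2 against WT, and from 3099 (without clone 2 replicate 2) to 5904 between the clones. Replicate numbers did not pair the libraries (correlations of deviations between -0.085 and 0.022). With the number as a replicate block, 1 gene was called in null against WT, 36 in clone 1 against WT and 45 in clone 2 against WT, with 0 members called in the last 2 comparisons, and 2995 between the clones, and the log2 fold change of Neurog2 in null against WT was -0.19. Depth per library is unknown.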

Other observations

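Of the 18 proneural and neuronal bHLH factors listed, 16 had a mean below 1 FPKM, and Neurod6 and Ptf1a were listed at 0 in every library. Bhlhe22, the one tested beside Neurog2, passed in no comparison, at 1.32 and 1.03 FPKM in clone 2 and 1.77 and 1.31 FPKM in clone 1, against 1.37 to 1.56 FPKM in WT. Pax6, a homeodomain factor known to activate Neurog2 in the cortex, fell in clone 2 against WT by a log2 fold change of -1.39 (limma adjusted p = 0.00500), at 17.8 and 11.1 FPKM in clone 2 and 32.1 and 30.3 FPKM in clone 1, against 36.2 to 39.8 FPKM in WT. Both clone 1 libraries thus also lay below every WT library for Pax6, as for 29.2% of all genes tested, whereas for Neurog2 they lay above. The part of Pax6 in the levels of Neurog2 was not tested.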
